A study of Homo sapiens with 24 samples.

Results

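The liver X receptors (LXRs) are nuclear receptors that sense oxysterols and pair with retinoid X receptors on DNA. When bound by sterol they raise transcription of genes that move cholesterol out of the cell, of an E3 ligase that limits lipoprotein uptake, and of enzymes that remodel membrane phospholipid. Cells of most tissues, carcinoma lines included, use this arm beside the SREBP2 arm, which answers low sterol with synthesis and uptake of cholesterol. The 7 genes described here were listed by symbol from 39786 entries of a gene count table, and 6 of the 7 had enough counts to be tested. They are the receptors NR1H2 (LXRβ) and NR1H3 (LXRα) and the target genes ABCA1, ABCG1, MYLIP, SMPDL3A and LPCAT3. ABCA1 and ABCG1 were listed because both rose with neratinib in parental 5637 cells, so their values in that contrast, and in any comparison that uses its libraries, are given below as a description with no test.

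Counts came from mRNA sequencing of 24 libraries in 8 groups of 3, from 2 human carcinoma lines, 5637 (bladder) and OVCAR8 (ovary). Neratinib is an irreversible inhibitor of the EGFR, HER2 and HER4 kinases. Each line was studied as a neratinib-resistant derivative, named NR, and as its parental cells, and each of these was harvested after 24 h with neratinib (600 nM for 5637, 1 µM for OVCAR8) or as control without it. The groups are, for each line, NR with neratinib, NR control, parental with neratinib and parental control. Every NR culture had been kept without drug for 1 week before seeding. The sources used here do not say whether an NR line was 1 clone or a pool, and the 3 replicates of a group were separate dishes, so the p-values below measure the spread between dishes of 1 line and not between independently derived resistant lines.

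Total counts were 34854111 to 43279168 per 5637 library and 23849832 to 48486296 per OVCAR8 library. The second parental control library of OVCAR8 stood apart. Genes longer than 8 kb took 14.1% of its counts. They took 20.4% to 21.2% in the 11 remaining libraries of that line and 20.9% to 22.4% in 5637. Since ABCA1 has a deposited length of 11350 bases, the results for these genes that rest on that library are given with and without it. All 5 epithelial markers and 6 of 7 measured urothelial markers reached 1 CPM (counts scaled to a library total of 1000000) in 5637. In OVCAR8, 3 of 5 epithelial and 3 of 5 ovarian epithelial markers did, with MUC16 and ESR1 below it. All 5 ovarian epithelial markers reached 1 CPM in 5637, so that list does not set the lines apart: MUC16 and WT1 were higher in 5637 (median 202 and 10.6 CPM) than in OVCAR8 (median 0.0258 and 2.24 CPM), while PAX8 and MSLN were lower in 5637 (median 22.1 and 2.05 CPM) than in OVCAR8 (median 106 and 260 CPM). Of 5 macrophage markers, the cells best known for LXR-driven efflux, none reached 1 CPM in 5637 (summed level 0.986 to 3.40 CPM) and MSR1 alone did in OVCAR8 (summed level 6.63 to 17.8 CPM).

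ABCA1 (ENSG00000165029.11, hg19 chromosome 9, 107543283 to 107690518) is the transporter that loads cholesterol and phospholipid onto lipid-poor apolipoprotein A-I. Its promoter is shown because LXR heterodimers bind a direct repeat spaced by 4 bases and ABCA1 is a classic target. The 300 bases from 250 before to 50 after the RefSeq start site (GRCh38.p14 chr9:104928106-104928405, minus strand; the counts use hg19) read, with a match to the relaxed repeat in capitals:
ABCA1 promoter: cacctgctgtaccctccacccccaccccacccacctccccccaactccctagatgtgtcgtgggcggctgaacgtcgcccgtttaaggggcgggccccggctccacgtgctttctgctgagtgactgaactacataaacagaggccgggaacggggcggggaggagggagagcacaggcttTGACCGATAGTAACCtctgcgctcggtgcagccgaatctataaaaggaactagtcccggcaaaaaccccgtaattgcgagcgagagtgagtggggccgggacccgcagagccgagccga
The capitals lie 69 to 55 bases before the start site and match on the opposite strand. The relaxed motif searched was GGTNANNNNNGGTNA on both strands, which occurs in 220 of 35116 RefSeq promoters of this length (0.626%). The strict repeat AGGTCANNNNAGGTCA occurs in 7 (0.0199%). RefSeq promoters were matched for 5 of the 7 genes, 8 promoters in all. Only the ABCA1 promoter held the relaxed letters and none held the strict ones, within windows of 300 bases. ABCG1 and SMPDL3A were not matched.

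The receptors come first. NR1H2 (ENSG00000131408.9, chromosome 19, 50832910 to 50886239) was the most abundant of the 7 genes per length in parental control cells of both lines. Per kilobase of deposited gene length it averaged 11.7 RPKM (CPM per kilobase) in 5637 parental control and 17.8 RPKM in OVCAR8 parental control. NR1H3 (ENSG00000025434.14, chromosome 11, 47269851 to 47290396) averaged 0.989 RPKM in 5637 parental control and 1.61 RPKM in OVCAR8 parental control.

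In 5637 the receptors differed in opposite directions between NR and parental cells. NR1H2 had 27.7, 27.3 and 33.8 CPM in 5637 NR control libraries, against 45.7, 41.0 and 45.3 CPM in parental control libraries. Every NR library lay below every parental one, and the log2 fold change was -0.59 (SE 0.13, edgeR adjusted p = 0.0011). NR1H3 had 7.74, 6.94 and 9.05 CPM in NR control, against 3.88, 4.76 and 4.26 CPM in parental control. These groups did not overlap either, with NR higher by a log2 fold change of 0.87 (SE 0.12, adjusted p = 2.2e-05). Both genes kept this order when both kinds of cell were on neratinib, with NR1H2 at 25.4 ± 5.01 CPM in NR and 49.7 ± 4.60 CPM in parental cells, and NR1H3 at 9.61 ± 0.873 and 5.10 ± 0.341 CPM in the same 2 groups (SD, n = 3 each). The ratio of NR1H2 to NR1H3 per length within a library averaged 4.34 ± 0.208 in NR control and 11.98 ± 1.86 in parental control cells. On neratinib it averaged 3.04 ± 0.402 in NR and 11.4 ± 1.64 in parental cells.

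Drug effects on the receptors in 5637 were small. In NR cells NR1H2 had 30.5, 20.5 and 25.0 CPM with neratinib, against 27.7, 27.3 and 33.8 CPM in control, a log2 fold change of -0.35 (SE 0.13, adjusted p = 0.047). The ranges overlap, and the call was lost under 5 of the other settings and without any of 3 single libraries, with adjusted p up to 0.22. NR1H3 changed by a log2 value of 0.15 in NR cells (SE 0.12, adjusted p = 0.33). In the parental contrast, given without a test, the log2 fold changes were 0.07 for NR1H2 and 0.14 for NR1H3.

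In OVCAR8 parental cells NR1H3 rose with drug. It had 13.2, 12.02 and 11.9 CPM with neratinib, against 6.29, 8.26 and 6.49 CPM in parental control. All 3 treated libraries lay above all 3 controls, and the log2 fold change was 0.71 (SE 0.14, adjusted p = 0.0025). Without the parental control library that stands apart, which had the highest of the 3 control values, it was 0.90 (adjusted p = 1.2e-07). In OVCAR8 NR cells NR1H3 had 8.24, 7.34 and 7.60 CPM with neratinib, against 7.09, 7.09 and 5.82 CPM in NR control, and the difference did not pass (log2 0.20, SE 0.14, adjusted p = 0.63). The test of the difference between these drug effects, NR minus parental, gave -0.52 (SE 0.20, adjusted p = 0.14), and -0.71 (SE 0.14, adjusted p = 0.00038) without that library. On neratinib NR1H3 was lower in OVCAR8 NR than in parental cells by a log2 fold change of -0.64 (SE 0.14, adjusted p = 0.0045). NR1H2 in OVCAR8 lay between 55.5 and 76.3 CPM in all 12 libraries and no comparison of it passed in the fit of all 12. In NR cells its values were lower with neratinib than in control, with no overlap (log2 -0.25, SE 0.12, adjusted p = 0.36). This difference passed in a fit of only the 6 libraries compared (adjusted p = 0.0041). Without the library that stands apart it was -0.26 (adjusted p = 0.0012), and the drug effect in NR minus parental cells was -0.28 (adjusted p = 0.0096).

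Whether reads were assigned by strand is not given in the sources used here, although the library kit keeps strand. The NR1H3 entry shares 607 bases with ACP2, a lysosomal phosphatase gene. ACP2 averaged 51.4 ± 4.88 CPM in 5637 NR control and 41.0 ± 0.937 CPM in 5637 parental control, and 35.4 ± 1.06 CPM in OVCAR8 parental cells on neratinib and 37.1 ± 4.60 CPM in OVCAR8 parental control. Whether reads in the shared bases were told apart by gene is therefore not known. The 4 genes that overlap NR1H2 averaged at most 1.34 CPM over all libraries.

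**Figure D1:**
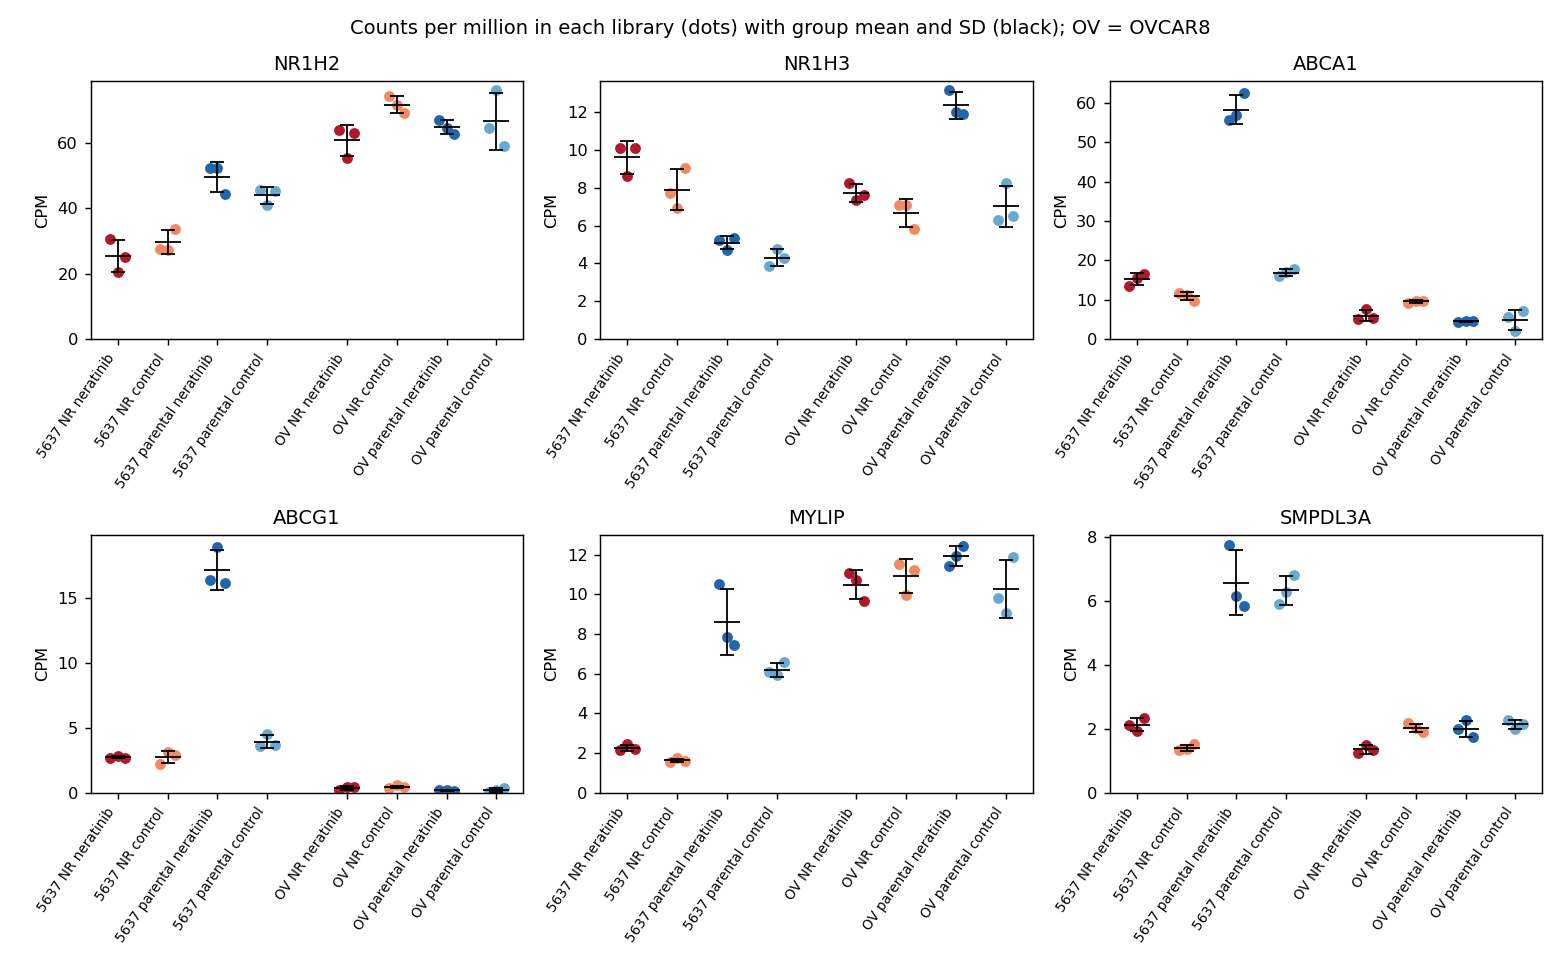
CPM (vertical axes, each from 0) of the 6 tested genes in each of 24 libraries, as dots, with the group mean and SD in black and groups along the horizontal axis. ABCA1 and ABCG1 stand out in 5637 parental cells with neratinib, MYLIP and SMPDL3A are low in 5637 NR cells, and NR1H3 is highest in OVCAR8 parental cells with neratinib.

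ABCA1 gave the highest level of its 8 groups in 5637 parental cells on neratinib, which is the contrast it was chosen on. It had 55.5, 56.8 and 62.5 CPM there, against 15.9, 17.0 and 17.7 CPM in parental control, a 3.21-fold difference (log2 1.68, SE 0.08). ABCG1 (ENSG00000160179.14, chromosome 21, 43619799 to 43717354), which passes cholesterol on to HDL particles and moves it inside the cell, had 16.3, 18.9 and 16.1 CPM with neratinib, against 3.61, 4.49 and 3.67 CPM in parental control, a 4.05-fold difference (log2 2.02, SE 0.12). In this contrast 47.3% of 18307 genes tested passed an adjusted p of 0.05. In the same libraries, also as a description, MYLIP had a log2 fold change of 0.36. Its groups did not overlap (7.43 to 10.5 CPM with neratinib, against 5.92 to 6.59 CPM in parental control). SMPDL3A had a log2 fold change of -0.05, and its groups overlapped.

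In 5637 NR cells ABCA1 rose slightly with drug and no change of ABCG1 was detected. ABCA1 had 13.6, 15.6 and 16.4 CPM in NR cells with neratinib, against 11.7, 11.2 and 9.74 CPM in NR control. The groups did not overlap, and the rise was 1.28-fold (log2 0.35, SE 0.09, adjusted p = 0.0044). A fit over all 24 libraries gave a like value (0.36) with an adjusted p of 0.2. ABCG1 had 2.66, 2.84 and 2.68 CPM with neratinib, against 2.23, 3.10 and 2.89 CPM in NR control, and the treated values fell within the control range (log2 -0.13, SE 0.15, adjusted p = 0.51). Set beside the parental contrast, the drug effect in NR minus that in parental cells was -1.33 (SE 0.12) for ABCA1 and -2.15 (SE 0.19) for ABCG1 on the log2 scale, as a description. In NR cells 3 of the 6 tested genes passed, where 39.5% of all genes did, so the share is close to that of the whole table.

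The third gene to pass in 5637 NR cells was SMPDL3A (ENSG00000172594.8, chromosome 6, 123110315 to 123130865), a secreted phosphodiesterase known as an LXR target in human macrophages. It had 2.13, 1.94 and 2.33 CPM with neratinib, against 1.33, 1.38 and 1.52 CPM in NR control, so that all treated libraries were higher (log2 0.47, SE 0.16, adjusted p = 0.028). The call was lost without 4 of the single libraries and with limma voom, with adjusted p up to 0.093. MYLIP (ENSG00000007944.10, chromosome 6, 16129356 to 16148479), the E3 ligase also called IDOL that limits lipoprotein uptake, had 2.15, 2.43 and 2.18 CPM with neratinib, against 1.56, 1.72 and 1.59 CPM in NR control. Its groups did not overlap, yet the test did not pass (log2 0.34, SE 0.16, adjusted p = 0.11). Scaling by library size alone gave 0.47 (adjusted p = 0.032) and moved the median over all genes to 0.12 in this contrast.

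**Figure D2:**
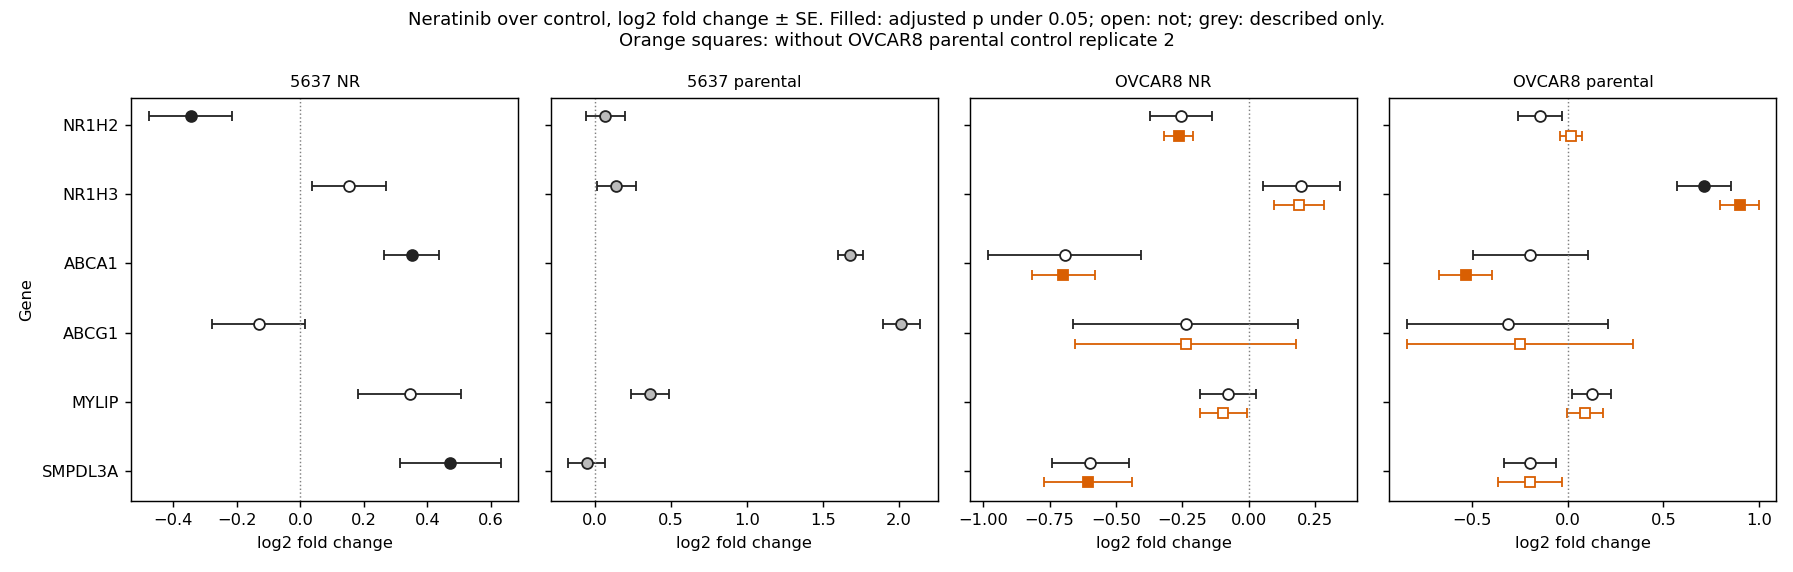
Log2 fold change of neratinib over control (horizontal axes, with their own range in each panel) with its SE for 6 genes in 4 kinds of cell. Filled black points passed an adjusted p of 0.05, open ones did not, grey ones are described only, and orange squares leave out the OVCAR8 parental control library that stands apart. ABCA1 lies at 1.68 in 5637 parental cells, 0.35 in 5637 NR cells and below 0 in both kinds of OVCAR8 cell.

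In OVCAR8 neither transporter rose with drug. With all libraries ABCA1 had 4.38, 4.48 and 4.56 CPM in parental cells with neratinib, against 5.52, 1.94 and 7.0 CPM in parental control, and the low control value is that of the library that stands apart. The log2 fold change was -0.20 (SE 0.30, adjusted p = 0.65). Without that library the 2 remaining controls lay above all treated values, and the log2 fold change was -0.53 (SE 0.14, adjusted p = 0.003), whereas leaving out the third control library in its place gave 0.16. In OVCAR8 NR cells ABCA1 had 5.13, 7.47 and 5.22 CPM with neratinib, against 9.19, 9.60 and 9.74 CPM in NR control. The groups did not overlap, but the log2 fold change of -0.69 (SE 0.29) had an adjusted p of 0.31. It was -0.70 (SE 0.12, adjusted p = 0.00021) when the parental control library that stands apart was left out of the fit, which takes no part in this contrast except through the shared estimate of spread. That estimate, edgeR's biological coefficient of variation, was 13% in OVCAR8 with the library, 4.37% without it, and 8.03% in 5637.

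ABCG1 was close to the detection limit in OVCAR8, with 3 to 21 counts per library. It lay between 0.0720 and 0.545 CPM there, and neither drug contrast passed (log2 -0.31 in parental cells, adjusted p = 0.68, and -0.24 in NR cells, adjusted p = 0.89). SMPDL3A had 1.24, 1.504 and 1.32 CPM in OVCAR8 NR cells with neratinib, against 2.17, 2.01 and 1.90 CPM in NR control. The ranges did not overlap, and the log2 fold change was -0.60 (SE 0.14) with an adjusted p of 0.071, or 0.011 without the parental control library. MYLIP lay between 9.05 and 12.5 CPM in all 12 OVCAR8 libraries and no drug contrast of it passed.

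Counted together, 1 of 6 tested genes passed in OVCAR8 parental cells on drug (NR1H3, higher), where 32.5% of all genes did. Without the library that stands apart 2 passed (NR1H3 higher, ABCA1 lower), where 49.2% of all genes did. In OVCAR8 NR cells edgeR called none of the 6, where 1.39% of all genes passed. At an unadjusted p under 0.05 there were 3 (ABCA1, NR1H2 and SMPDL3A, all lower), DESeq2 called 1, and without the parental control library edgeR called those 3, where 21.3% of all genes passed. For the difference between NR and parental drug effects in OVCAR8, edgeR called 0 of 6 (NR1H3 alone at an unadjusted p under 0.05, and 0 with DESeq2) against 8.83% of all genes, and 2 of 6 (NR1H3 and NR1H2) against 32.8% without the library. With 6 genes tested, these shares are read only beside their backgrounds and show nothing particular to the list.

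**Figure D3:**
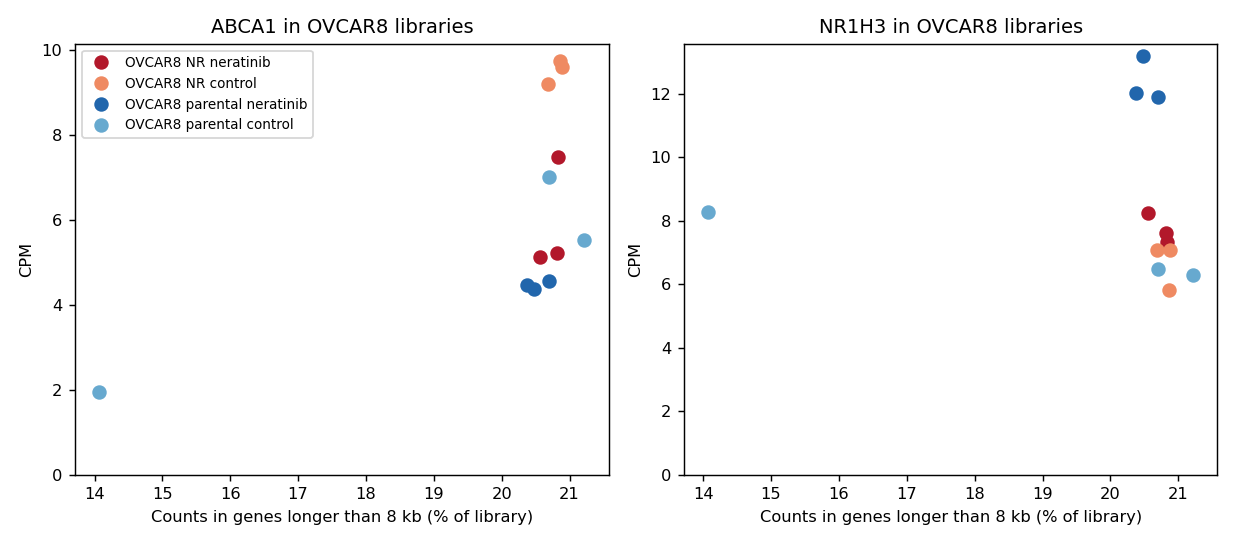
CPM of ABCA1 and NR1H3 (vertical axes) against the percentage of a library's counts that fell in genes longer than 8 kb (horizontal axes), for the 12 OVCAR8 libraries. The library at 14.1% has the lowest ABCA1 value, 1.94 CPM, while the other 11 lie between 20.4% and 21.2%; its NR1H3 value of 8.26 CPM is the highest of the parental controls.

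The drug effect in NR cells differed between the lines for ABCA1 and SMPDL3A. In 1 fit over 24 libraries the effect in 5637 minus that in OVCAR8 was 1.05 for ABCA1 (SE 0.30, adjusted p = 0.023) and 1.08 for SMPDL3A (SE 0.21, adjusted p = 0.0015) on the log2 scale. Both genes had all 3 treated libraries above the controls in 5637 NR and all 3 below in OVCAR8 NR. The lines received different doses, so line and dose cannot be told apart. The other 4 tested genes did not pass, and 9.84% of 20250 genes did. For ABCA1 the call was lost without any of 4 single libraries, with adjusted p of up to 0.075. Without the OVCAR8 library that stands apart, which is not among those compared, the difference was 1.05 for ABCA1 (SE 0.15, adjusted p = 1.6e-05). For SMPDL3A it was then 1.08 (SE 0.22, adjusted p = 0.00079), where 19.9% of 20813 genes passed.

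Without drug, 5637 NR cells had less MYLIP and SMPDL3A than parental 5637 cells. SMPDL3A had 1.33, 1.38 and 1.52 CPM in NR control, against 5.90, 6.29 and 6.82 CPM in parental control (log2 -2.18, SE 0.14, adjusted p = 3.4e-09). MYLIP had 1.56, 1.72 and 1.59 CPM in NR control, against 6.07, 5.92 and 6.59 CPM in parental control (log2 -1.95, SE 0.15, adjusted p = 1.8e-08). No library of either group came near the other for these genes. ABCA1 (11.7, 11.2 and 9.74 CPM in NR control, against 15.9, 17.0 and 17.7 CPM in parental control) differed by a log2 fold change of -0.65 (SE 0.09). ABCG1 (2.23, 3.10 and 2.89 CPM in NR control, against 3.61, 4.49 and 3.67 CPM in parental control) differed by -0.53 (SE 0.14). The values of ABCA1 and ABCG1 are a description, since the 3 parental control libraries belong to the contrast on which both were chosen. The 4 genes not chosen on it all passed, 1 higher (NR1H3) and 3 lower, where 56.5% of all genes passed.

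On neratinib the same genes were compared between NR and parental 5637 cells. MYLIP averaged 2.25 ± 0.156 CPM in NR and 8.60 ± 1.67 CPM in parental cells (log2 -1.96, SE 0.14, adjusted p = 8.2e-09). SMPDL3A averaged 2.13 ± 0.198 CPM in NR and 6.58 ± 1.03 CPM in parental cells (log2 -1.65, SE 0.13, adjusted p = 4.2e-08). With the receptors, all 4 genes not chosen on the parental response passed, 3 lower and 1 higher, where 58% of all genes passed. ABCA1 and ABCG1 are described only, since the treated parental libraries picked them. ABCA1 averaged 15.2 ± 1.46 CPM in NR and 58.3 ± 3.73 CPM in parental cells, and ABCG1 averaged 2.73 ± 0.10 CPM in NR and 17.1 ± 1.55 CPM in parental cells. NR cells on drug thus held ABCA1 in a range that overlaps that of parental cells without drug (13.6 to 16.4 CPM against 15.9 to 17.7 CPM).

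In OVCAR8 the difference between NR and parental control cells pointed upward for ABCA1. It had 9.19, 9.60 and 9.74 CPM in NR control, against 5.52, 1.94 and 7.0 CPM in parental control, with no overlap (log2 0.94, SE 0.29, adjusted p = 0.065). Without the library that stands apart it was 0.60 (SE 0.13, adjusted p = 0.0019). ABCG1, at 0.373, 0.545 and 0.410 CPM in NR control and 0.0720, 0.203 and 0.318 CPM in parental control, did not pass with or without it (log2 1.08, adjusted p = 0.17, and 1.14, adjusted p = 0.13). With all libraries edgeR called 0 of 6 (2 at an unadjusted p under 0.05, and 1 with DESeq2), where 9.84% of all genes passed. Without the library it called 2, ABCA1 and NR1H2, where 22.8% did. MYLIP and SMPDL3A, the genes with the widest gap in 5637, differed by log2 values of 0.05 and -0.12 in OVCAR8.

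On neratinib, 2 of 6 passed between OVCAR8 NR and parental cells, where 31% of all genes did. These were NR1H3, given above, and SMPDL3A, at 1.24, 1.504 and 1.32 CPM in NR and 1.98, 2.27 and 1.75 CPM in parental cells (log2 -0.52, SE 0.14, adjusted p = 0.015; up to 0.077 without 1 library). Without the parental control library 4 passed, where 55.5% did, the 2 others being ABCA1 (log2 0.44, adjusted p = 0.0053) and ABCG1 (log2 1.151, adjusted p = 0.042), both higher in NR.

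**Figure D4:**
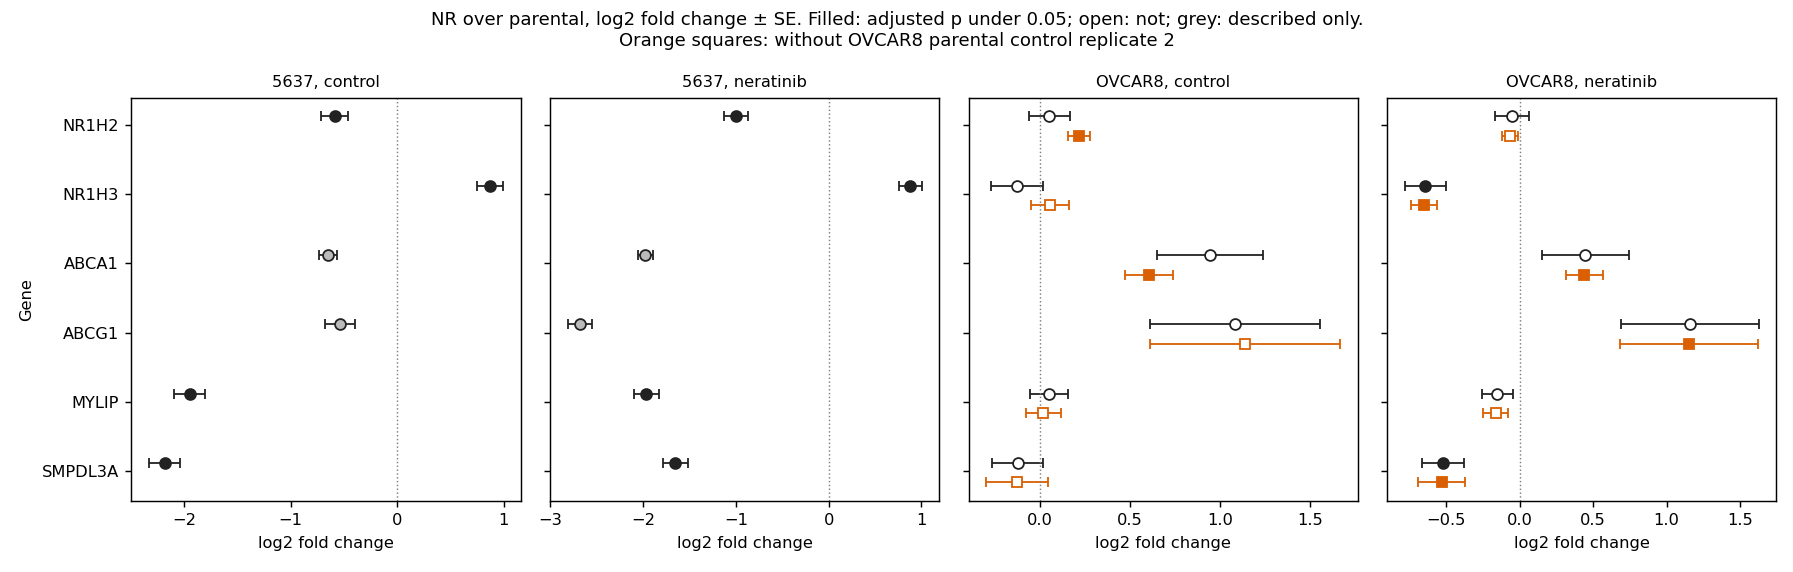
Log2 fold change of NR over parental (horizontal axes, with their own range in each panel) with its SE for 6 genes, without drug and on neratinib, in both lines; filled black points passed an adjusted p of 0.05, open ones did not, grey ones are described only, and orange squares leave out the OVCAR8 parental control library that stands apart. In 5637 NR1H3 lies right of 0 and the other 5 genes left of it; in OVCAR8 the open round points of MYLIP and NR1H2 stay near 0.

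Between the untreated parental lines, the 4 genes not chosen on the 5637 libraries all passed, where 72% of 20250 genes did. SMPDL3A (6.34 ± 0.465 CPM in 5637 and 2.15 ± 0.140 CPM in OVCAR8) was higher in 5637 (log2 difference 1.57). MYLIP (6.19 ± 0.352 CPM in 5637 and 10.2 ± 1.46 CPM in OVCAR8), NR1H2 (44.0 ± 2.63 CPM in 5637 and 66.7 ± 8.70 CPM in OVCAR8) and NR1H3 (4.30 ± 0.439 CPM in 5637 and 7.01 ± 1.09 CPM in OVCAR8) were lower in 5637 (log2 difference -0.72, -0.60 and -0.71). The highest adjusted p of the 4 was 0.00028. Without the OVCAR8 library that stands apart the log2 differences were 1.56 for SMPDL3A, -0.76 for MYLIP, -0.44 for NR1H2 and -0.52 for NR1H3, with adjusted p of at most 0.0013. As a description, ABCA1 averaged 16.9 ± 0.910 CPM in 5637 and 4.82 ± 2.60 CPM in OVCAR8 (log2 difference 1.81, and 1.48 without that library), and ABCG1 averaged 3.92 ± 0.490 CPM in 5637 and 0.198 ± 0.123 CPM in OVCAR8 (log2 difference 4.30, and 4.36 without it).

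Over all 8 groups the order of levels was as follows. ABCA1 was highest in 5637 parental cells with neratinib and next in 5637 parental control and 5637 NR with neratinib, whose ranges overlap, and it was lowest in OVCAR8 parental cells with neratinib, which overlap OVCAR8 parental control through the library that stands apart. Without that library OVCAR8 parental control averaged 6.26 CPM, with no overlap with the treated parental cells, and lay above OVCAR8 NR with neratinib (5.94 CPM). ABCG1 had every 5637 group above every OVCAR8 group, and the 4 OVCAR8 groups overlapped in turn. SMPDL3A was highest in the 2 parental 5637 groups, which overlap each other and nothing else. MYLIP was lowest in 5637 NR control and next in 5637 NR with neratinib, with no overlap between any neighbours among the 3 lowest groups.

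LPCAT3, the acyltransferase that places polyunsaturated chains in phospholipid, could not be described. The table lists it on chromosome 12 (ENSG00000111684.6), with 0 to 4 counts per library and 9 libraries at 0, and again on a patch contig (ENSG00000268829.1), with 0 to 6 counts and 11 libraries at 0. Its level was under what 3 counts allow in most libraries, and no entry was tested. Of 750 chromosome entries that share a symbol with a patch contig entry, 77.5% averaged under 0.1 CPM, against 47.3% of all 38803 chromosome entries. Whether its low counts come from reads that fit both copies was not tested.

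Genes of the same pathway were counted from lists drawn up beside the members. Of 12 tested other LXR targets, 2 rose and 6 fell with drug in 5637 NR cells (50% lower, against 21.1% of all genes). APOE, an apolipoprotein that takes up effluxed cholesterol, rose to 11.8 ± 2.88 CPM with neratinib, against 6.36 ± 0.326 CPM in NR control (log2 0.77). TTC39B rose (log2 0.49), while FASN, fatty acid synthase (log2 -0.73), fell. In parental 5637 cells 2 rose, TTC39B (log2 0.84) among them, and 8 fell, SCD, a desaturase (log2 -1.50), among them. In OVCAR8 parental cells 2 rose and 7 fell with drug (4 and 7 without the library that stands apart). In OVCAR8 NR cells 0 rose and 2 fell (0 and 5 without it), the 2 being FASN (log2 -0.78) and SCD (log2 -0.72). Of all genes, 23.5% fell in parental 5637, 16.3% in OVCAR8 parental (24.9% without that library) and 0.747% in OVCAR8 NR cells (11.9% without it). FASN and SCD are also targets of SREBP1, so the list is not specific to LXR.

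Between NR and parental control cells APOE went in opposite directions in the lines. In 5637 it averaged 6.36 ± 0.326 CPM in NR control and 1.02 ± 0.114 CPM in parental control (log2 2.63, adjusted p = 1.2e-08). In OVCAR8 it averaged 2.46 ± 0.508 CPM in NR control and 13.7 ± 7.14 CPM in parental control (log2 -2.53, adjusted p = 0.00057, and -1.95 without the library that stands apart). The difference between the lines was not tested. SREBF1, an LXR target that encodes SREBP1, was lower in 5637 NR control, at 37.6 ± 3.47 CPM against 89.2 ± 2.42 CPM in parental control (log2 -1.26). In all, 4 of 12 other targets were higher and 5 lower in 5637 NR control, where 28.4% of all genes were higher and 28% lower, so the counts are not far from the background. In OVCAR8 NR control 4 were higher and 2 lower, where 4.94% of all genes were higher and 4.91% lower. Without the library that stands apart 6 were higher and 2 lower, where 11.4% of all genes went each way.

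Of 7 partner receptors and co-regulators of LXR, 4 passed with drug in 5637 NR cells, all higher, among them the coactivators NCOA2 (log2 0.64) and NCOA1 (log2 0.54). In parental 5637 cells 6 passed, all higher. Of all genes, 18.4% rose in the NR and 23.9% in the parental contrast. RXRA, the retinoid X receptor partner, was lower in 5637 NR control, at 228 ± 12.1 CPM against 383 ± 4.21 CPM in parental control (log2 -0.76, adjusted p = 1.6e-06). In OVCAR8 parental cells RXRA rose with drug (log2 0.35, adjusted p = 0.0021, and 0.33 without the library that stands apart).

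The SREBP2 arm, which answers low sterol, was counted beside the transporters. Of 18 SREBP2 synthesis genes tested, 16 fell with drug in parental 5637 cells, 6 in 5637 NR cells, 14 in OVCAR8 parental cells and 5 in OVCAR8 NR cells (15 and 12 in OVCAR8 without the library that stands apart). The shares of all genes that fell in the same 4 contrasts were 23.5%, 21.1%, 16.3% and 0.747%, and in OVCAR8 without that library 24.9% and 11.9%. Of 6 tested genes that supply or break down oxysterols and desmosterol, both known as LXR ligands, 2 rose and 3 fell in 5637 NR cells. CYP27A1, which makes 27-hydroxycholesterol, rose (log2 0.83).

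The genes most like ABCA1 across the 12 libraries of 5637, by Pearson's r of log2(CPM + 1) over genes of at least 5 CPM, were LITAF (0.99), NBR1 (0.99) and TRAPPC2 (0.98), and ABCG1 stood at 0.97. For ABCG1 they were RPS6KA2 (0.98), FAM167A (0.98) and TUFT1 (0.98). In OVCAR8 ABCA1 was most like HOXB3 (0.97), PPP1R16B (0.96) and NPC1 (0.96), with ABCG1 at 0.63. All points share the 4 groups of a line, and in OVCAR8 the library that stands apart, so these are descriptions of the pattern only. ABCA1 and ABCG1 were also chosen because both rose with drug in parental 5637 cells. A high r between them in 5637 therefore follows in part from that choice.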

How the data were processed

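Libraries were made from mRNA with a strand-keeping kit, per the labels' protocols. The authors' deposited table holds raw counts per gene. Per the submitters' processing notes, FastQC, STAR 2.5.3a, featureCounts 1.15.2, DESeq2 1.18.1 and build hg19 were used; the counting options are not given in the sources used here. The 12 libraries of each line were fitted together as 4 groups with edgeR 4.0.16 (R 4.3.3; filterByExpr, TMM, quasi-likelihood test, Benjamini-Hochberg adjustment over all genes, threshold 0.05), and line differences with 24 libraries. The fit was tested on simulated data. SE is the absolute log2 fold change over the square root of F. CPM used library totals, and RPKM the deposited lengths. Genes beside the members were named as the most changed called genes of each list with a mean of at least 5 CPM in a group, or by likeness. Members and lists were chosen with earlier results of these data known. Alternatives used DESeq2 1.42.0, limma 3.58.1 voom, other scalings, filters, library sets and single libraries left out. Counting limits of LPCAT3 and OVCAR8 ABCG1 cover counting error only. Promoters are RefSeq's. Some genes of the lists are counted but not reported here by name.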

Additional observations from a re-analysis of the deposited data

Results flagged for a closer look

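For 2 genes the results stood out because the effect of the same drug differed between the lines in a test of the difference itself. The effect of neratinib in NR cells, 5637 minus OVCAR8, was 1.05 for ABCA1 on the log2 scale (SE 0.30, adjusted p = 0.023), from 15.2 ± 1.46 CPM with neratinib and 10.9 ± 1.04 CPM in control in 5637, and 5.94 ± 1.33 CPM with neratinib and 9.51 ± 0.290 CPM in control in OVCAR8 (SD, n = 3 each). It was 1.08 for SMPDL3A (SE 0.21, adjusted p = 0.0015), from 2.13 ± 0.198 CPM with neratinib and 1.41 ± 0.0991 CPM in control in 5637, and 1.35 ± 0.137 CPM with neratinib and 2.03 ± 0.136 CPM in control in OVCAR8. The lines received different doses, so line and dose cannot be told apart. The edgeR call for ABCA1 was lost when some single libraries were left out, with adjusted p of up to 0.075. Without the OVCAR8 parental control library that stands apart, edgeR called ABCA1 (adjusted p = 1.6e-05) and SMPDL3A (adjusted p = 0.00079).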

How the results depend on the processing

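Of the values for single genes under other settings, 653 of 678 kept direction and call, and 508 of 558 did with 1 library left out. With all 24 libraries in 1 fit, 1 of the 6 genes was called for drug in 5637 NR cells. For drug in OVCAR8 parental cells, the 6 libraries compared alone gave 2865 calls over all genes. For drug in OVCAR8 NR cells, calls over all genes were 800 with DESeq2, 3641 with those 6 libraries and 488 with 24, and 1, 3 and 1 of the 6 genes in the same settings. For NR against parental control in OVCAR8, they were 490 with 6 libraries and 2884 with 24, and 1 of the 6 genes with DESeq2, limma voom, no filter or 24 libraries. On neratinib they were 10401 with 6 libraries, with 4 of the 6 genes, and 1 gene with no filter. The difference of drug effects in OVCAR8 gave 2520 calls with DESeq2 and 2436 with 24 libraries. The cause was not tested.

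With 1 library left out, calls over all genes ranged from 4207 to 9117 (drug, OVCAR8 parental), 43 to 3950 (drug, OVCAR8 NR), 993 to 4225 (NR against parental control, OVCAR8), 3933 to 10286 (the same on neratinib), 790 to 6076 (difference of drug effects, OVCAR8) and 1486 to 4141 (line difference of NR drug effects). Called genes of the 6 ranged from 1 to 2, 0 to 3, 0 to 2, 1 to 4, 0 to 2 and 1 to 2 in that order, and from 1 to 2 for drug in 5637 NR cells. The described line difference of ABCG1 in parental control cells ranged from 3.83 to 4.87. The highest counts over all genes in OVCAR8 came without the second parental control library.

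Among tested values, signs turned from the main fit only where neither the main nor the turned value was called. Some ends of the ranges below were called, however. Without the second parental control library of OVCAR8, edgeR called ABCA1 for drug in OVCAR8 parental cells (log2 -0.53, adjusted p = 0.003). It also called NR1H2 for NR against parental control in OVCAR8 (log2 0.22, adjusted p = 0.012). ABCG1's difference of drug effects in OVCAR8 was -0.13 with limma voom and -0.000218 with library size only, and ranged from -0.46 to 0.52 with 1 library left out. With library size only, the line difference of NR drug effects was 0.015 for NR1H2 and 0.064 for NR1H3. With 1 library left out it ranged from -0.25 to 0.047 for NR1H2, -0.12 to 0.089 for NR1H3 and -0.14 to 0.28 for ABCG1. The drug effect in OVCAR8 parental cells ranged from -0.53 to 0.16 for ABCA1, -0.75 to 0.22 for ABCG1 and -0.24 to 0.017 for NR1H2, and that in OVCAR8 NR cells from -0.44 to 0.0078 for ABCG1. NR against parental control in OVCAR8 ranged from -0.00477 to 0.14 for MYLIP, -0.052 to 0.22 for NR1H2 and -0.23 to 0.056 for NR1H3, and on neratinib from -0.095 to 0.012 for NR1H2.

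No steady pairing of libraries by replicate number was detected: same-numbered libraries correlated at -0.67 to 0.49 in 5637 (7 of 18 pairs over 0.1) and -0.36 to 0.35 in OVCAR8 (6 of 18). With the replicate block, 98 genes were called for drug in OVCAR8 NR cells, against 251 without it, and 3 of the 6 genes in 5637 NR cells, as without it.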
